A study of Schizosaccharomyces pombe with 5 samples.

Results

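The genes described here encode subunits of SAGA, NuA4 and TFIID, 3 large complexes of the fission yeast Schizosaccharomyces pombe that act at promoters. The list held 37 subunit genes, fixed by name, and 35 of them had oligonucleotides on the array, out of 4907 genes measured on every array. The deubiquitinating subunit genes sgf11 and sus1 had no annotated oligonucleotide and are not analysed here. One gene, taf111, was found under its reference symbol taf1. Of the 35 genes, 17 belong to SAGA, 10 to NuA4 and 13 to TFIID, and 5 of these (taf5, taf6, taf9, taf10 and taf12) are counted in both SAGA and TFIID.

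SAGA is a coactivator that acetylates histone H3 through Gcn5, removes ubiquitin from histone H2B through Ubp8 and hands the TATA-binding protein to promoters through Spt3 and Spt8. NuA4 acetylates histones H4 and H2A through the MYST family enzyme Mst1. TFIID consists of the TATA-binding protein and its associated factors (TAFs), several of which carry histone folds and sit in SAGA as well. In fission yeast the scaffold Tra1 belongs to SAGA alone, where it docks on Spt20, and its paralog Tra2 serves NuA4.

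The 5 arrays were spotted with oligonucleotides and read cDNA in Cy5 and in Cy3, made from total RNA of cells grown at 30 degrees. By their labels, 2 arrays carried wild-type cDNA in both dyes, and 3 carried cDNA of the strain with the tra1-1 allele in Cy5 against wild-type cDNA in Cy3. They are called WT1 and WT2, and TR1, TR2 and TR3, in the order of their labelled repeats, and these names stand for the labels only. The labels name no other allele, no medium and no lesion for tra1-1. They do not say that repeats were grown separately, and each p-value then measures only how far these arrays scatter, which may be technical scatter. Each value is a log ratio, set to a median of 0 on each array and read on the log2 scale as Cy5 relative to Cy3. Neither this base nor this direction is stated with the values, the direction is likely, and every sign would turn if the ratio ran the other way. TR3 stood apart from its group: across genes its ratios correlated with r = 0.72 and 0.74 with WT1 and WT2, against 0.47 and 0.47 with TR1 and TR2. Calls are therefore given with and without TR3, and differences where leaving it out turned their sign.

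tra1 (SPBP16F5.03c), the gene named by the mutant allele, was the subunit gene with the widest spread over the arrays, 2.25 on the log2 scale against 0.20 to 0.86 for the other 34. Its log2 ratio was -1.41 on WT1, -2.04 on WT2, 0.04 on TR1, 0.02 on TR2 and -2.21 on TR3. Its oligonucleotides read -1.60, -2.66, -0.03, -0.30 and -2.27, and -1.21, -1.42, 0.12, 0.34 and -2.15, in the same order. tra1 was thus low on both arrays labelled wild type in both dyes and on TR3, and near the array median on TR1 and TR2, so the labelled groups overlapped and the tra1 values go against the labels. The probe positions within the gene are not known here, so a probe may lie outside what the allele changes. The means were -0.72 ± 1.29 (SD, n = 3) on the arrays labelled tra1-1 and -1.72 ± 0.45 (SD, n = 2) on those labelled wild type, and they differed by 1.01 ± 0.55 (SE, limma adjusted p = 0.747). Without TR3 it was 1.75 ± 0.19 (SE, limma adjusted p = 1.78e-05), so the call rests on leaving out that array. In RNA from whole cultures, fewer cells with a transcript and less transcript per cell cannot be told apart. Every direction between the labelled groups given below carries this doubt about the labels.

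The genes beside tra1 did not share its low values. In the gene order of the reference assembly ASM294v3, mcs2, a cyclin gene of TFIIH, and ubc7, a ubiquitin-conjugating enzyme gene, flank tra1. mcs2 had log2 ratios of 0.58, 0.58, 0.44, 0.67 and 1.07 on WT1, WT2, TR1, TR2 and TR3, positive on all arrays. ubc7 had -0.57, -0.38, -0.23, -0.21 and -0.22 in the same order, negative on all arrays but far from the tra1 values. Over the 6 genes within 3 places on either side, no difference between the groups passed limma's test (adjusted p from 0.75 to 0.96).

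**Figure D1:**
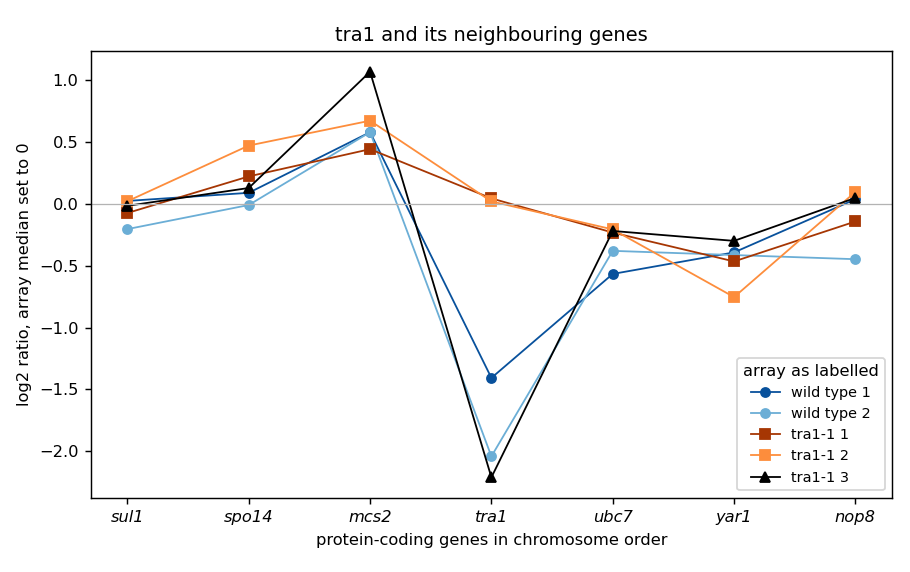
Log2 ratio (vertical axis, array median set to 0) of tra1 and the 3 protein-coding genes on each side, in chromosome order (horizontal axis), with 1 line per array named by its label. tra1 drops to between -1.41 and -2.21 on both wild-type-labelled arrays and on the one labelled tra1-1 3, while the lowest neighbour value is -0.754, for yar1 on the array labelled tra1-1 2.

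Among markers of mating type, some M cell genes were high where tra1 was low. The summed log2 ratio of 7 M cell genes (mam1 to mam4 and mfm1 to mfm3) was 5.76, 4.54, 0.26, -0.89 and 5.11 on WT1, WT2, TR1, TR2 and TR3. The gene with the highest ratios was mfm2, a pheromone gene, at 2.20, 1.93, 0.71, 0.31 and 2.21, while mfm1 (-0.22 on WT2 and -0.27 on TR3) and mfm3 (0.01 and -0.01) were not high on all 3 arrays. The tra1-1-labelled group had lower means in 7 of 7, and 0 of 7 passed limma's test. The 4 P cell genes map1 to map4 summed to 0.31, -0.81, 0.17, -0.27 and -0.84, so the sum was not low on WT1. Of these, map1 stood at -0.31, -0.56, -0.10, 0.01 and -0.36, lower on WT1, WT2 and TR3 than on TR1 and TR2. In contrast, map4, at 0.22, 0.08, -0.07, -0.26 and 0.11, was higher on WT1, WT2 and TR3, and map2 and map3 did neither. The part of mating type in the tra1 values was not tested.

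The main comparison set tra1-1 beside wild type for each subunit transcript, and none of the 35 was called. limma called 0 of 35 at an adjusted p under 0.05, the same as the background of 0% over 4907 genes, and the adjusted p ranged from 0.685 to 0.996. At an unadjusted p under 0.05 there were 0 subunit genes higher and 1 lower, ada1, where 3.59% and 3.53% of all genes lay. For the 34 genes other than tra1 the difference ranged from -0.41 (ada2) to 0.26 (taf13), with standard errors of 0.15 to 0.21, and 25 of the 34 differences were smaller than their own standard error (60.4% of all genes). The unadjusted 95% intervals of those 34 differences reached no farther than -0.85 for ada2 and 0.66 for alp5. In this fit a change of 1 on the log2 scale (2-fold) between the labelled groups thus lay outside each interval. The ada2 difference moved to -0.13 without WT1 and -0.69 without WT2, and to -0.60 and -0.22 with single oligonucleotides. Intervals were not computed for those settings. Without TR3, limma called 1 of 35 higher and 0 of 35 lower, against 2.47% and 1.71% of all genes. The 1 gene was tra1. The other 34 differences then ran from -0.50 (ada2) to 0.36 (taf5), and 6 had turned their sign: sgf73 (0.10), taf9 (0.07), taf12 (-0.08), mst1 (-0.0085), eaf6 (-0.06) and taf11 (-0.0098). ngg1 moved to 0.04 and spt3 to -0.02. Leaving out WT1 turned 7 of the 34 signs and leaving out WT2 turned 4.

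**Figure D2:**
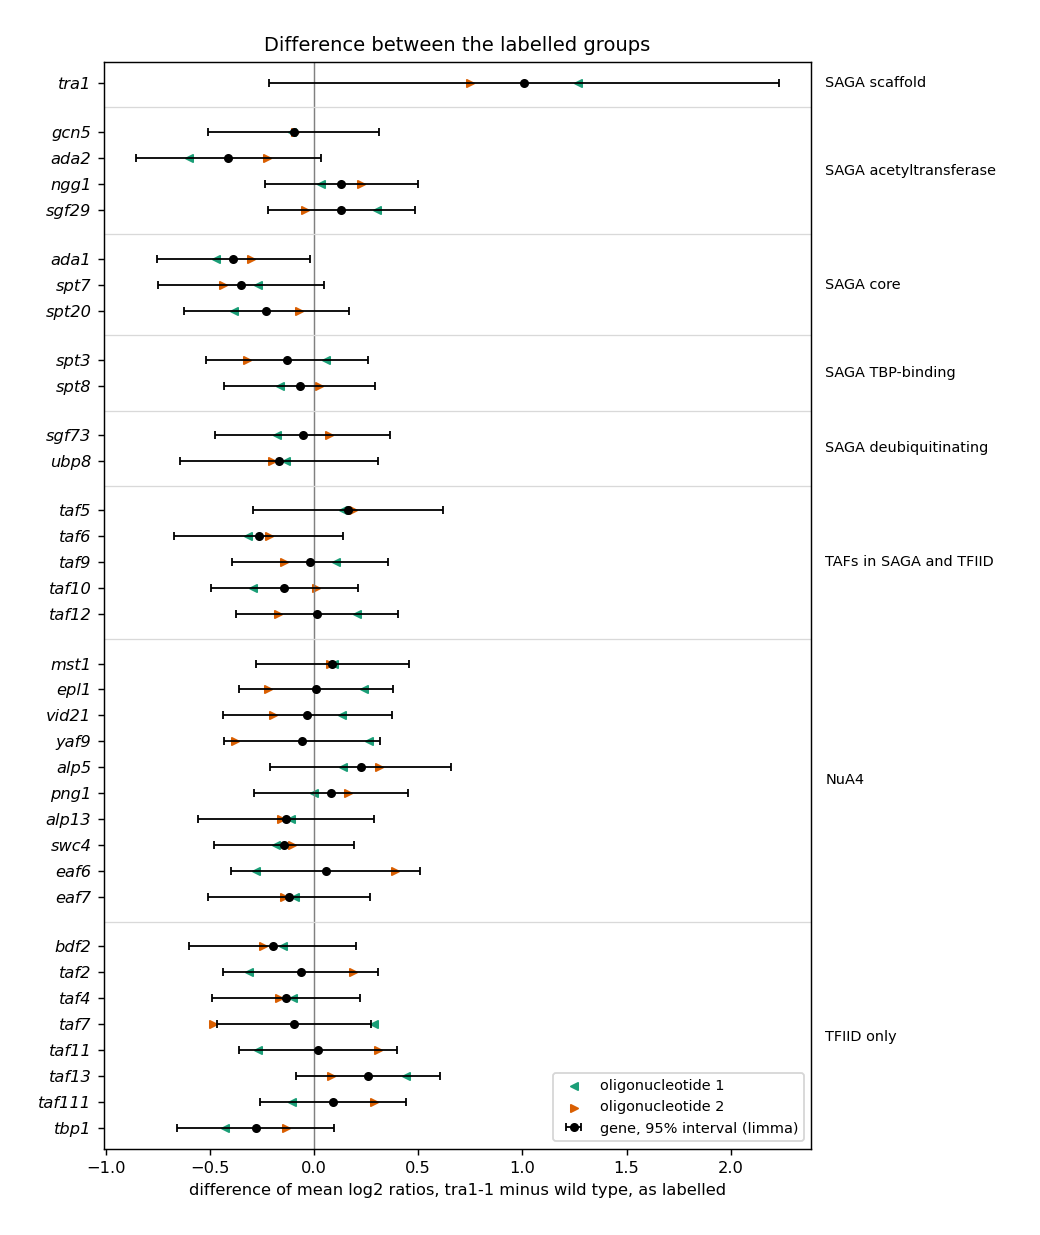
Difference of mean log2 ratios between the groups labelled tra1-1 and wild type (horizontal axis) for each of 35 subunit genes (vertical axis), by module. Black points are gene means with limma 95% intervals and triangles are the 2 oligonucleotides of each gene, and the intervals of all genes except ada1 cross 0.

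Groups that did not overlap were found in 7 subunit genes. Of the 35, 6 had all tra1-1-labelled arrays below both wild-type-labelled arrays (ada1, spt7, taf10, swc4, taf4 and tbp1), where 12% of all genes did. One, taf13, had them all above, where 11.3% of all genes did. Of the 7, ada1 alone had an unadjusted 95% interval that left out 0, and none passed the adjusted test.

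Among the SAGA core subunits, the structural proteins that hold the complex together, all 3 measured genes had lower means in the group labelled tra1-1. ada1 had log2 ratios of 0.61, 0.60, 0.06, 0.41 and 0.19 on WT1, WT2, TR1, TR2 and TR3. Both wild-type-labelled values thus lay above all others, and the difference was -0.39 ± 0.17 (SE, limma adjusted p = 0.685, unadjusted p = 0.041). spt7, which carries a bromodomain and a histone fold, stood at 0.46, 0.12, 0.05, -0.26 and 0.03, also without overlap, and its difference was -0.35 ± 0.18 (SE, limma adjusted p = 0.720). spt20, which anchors Tra1 in SAGA, stood at 0.25, -0.20, -0.25, -0.12 and -0.24. Only WT1 was above 0 there, and the difference of -0.23 ± 0.18 (SE, limma adjusted p = 0.811) was close to its error. Both oligonucleotides of ada1 (-0.47 and -0.30), spt7 (-0.27 and -0.44) and spt20 (-0.38 and -0.07) gave differences of the same sign. Without WT1 the differences were -0.38 for ada1, -0.18 for spt7 and -0.005 for spt20, so the size in spt7 and spt20 rested on that array.

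The acetyltransferase module of SAGA was uneven. gcn5, the catalytic subunit, stood at 0.36, 0.03, 0.13, -0.13 and 0.29 on WT1, WT2, TR1, TR2 and TR3, with overlapping groups and a difference of -0.10 ± 0.19 (SE). ada2, its SANT domain partner, stood at 0.30, -0.26, -0.40, -0.56 and -0.22. WT1 alone was above 0, and one of the ada2 oligonucleotides read 0.84 there while the other read -0.24. The ada2 difference of -0.41 ± 0.20 (SE, limma adjusted p = 0.709) was the largest of the 34 and rested on that oligonucleotide in part, at -0.60 for one and -0.22 for the other. Without WT1 it was -0.13, and without WT2 -0.69. ngg1, the fission yeast Ada3, had ratios of 0.16 to 0.50, all above 0, with TR3 highest. sgf29, whose Tudor domains bind methylated histone H3, had -0.10 to 0.23. Differences of ngg1 and sgf29 were 0.13 ± 0.17 and 0.13 ± 0.16 (SE).

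The SAGA genes for contact with the TATA-binding protein and for deubiquitination gave no called difference between the groups. spt3 stood at 0.60, 0.44, 0.42, 0.58 and 0.16 on WT1, WT2, TR1, TR2 and TR3, above 0 on all arrays and lowest on TR3, with a difference of -0.13 ± 0.18 (SE). spt8, a WD repeat protein gene, lay between -0.03 and 0.24, with a difference of -0.07 ± 0.16 (SE). ubp8, the ubiquitin protease, stood at -0.47, 0.24, -0.30, -0.15 and -0.41, above 0 on WT2 alone. sgf73, which ties the deubiquitinating module to SAGA, stood at -0.05, -0.26, -0.02, -0.09 and -0.52, below 0 on all arrays. Differences of ubp8 and sgf73 were -0.17 ± 0.21 and -0.05 ± 0.19 (SE), and only 2 of the 4 listed genes of that module were measured. Without WT1 the ubp8 difference was -0.53, and without WT2 it was 0.19. Its size and sign thus rested on which wild-type-labelled array was used.

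**Figure D3:**
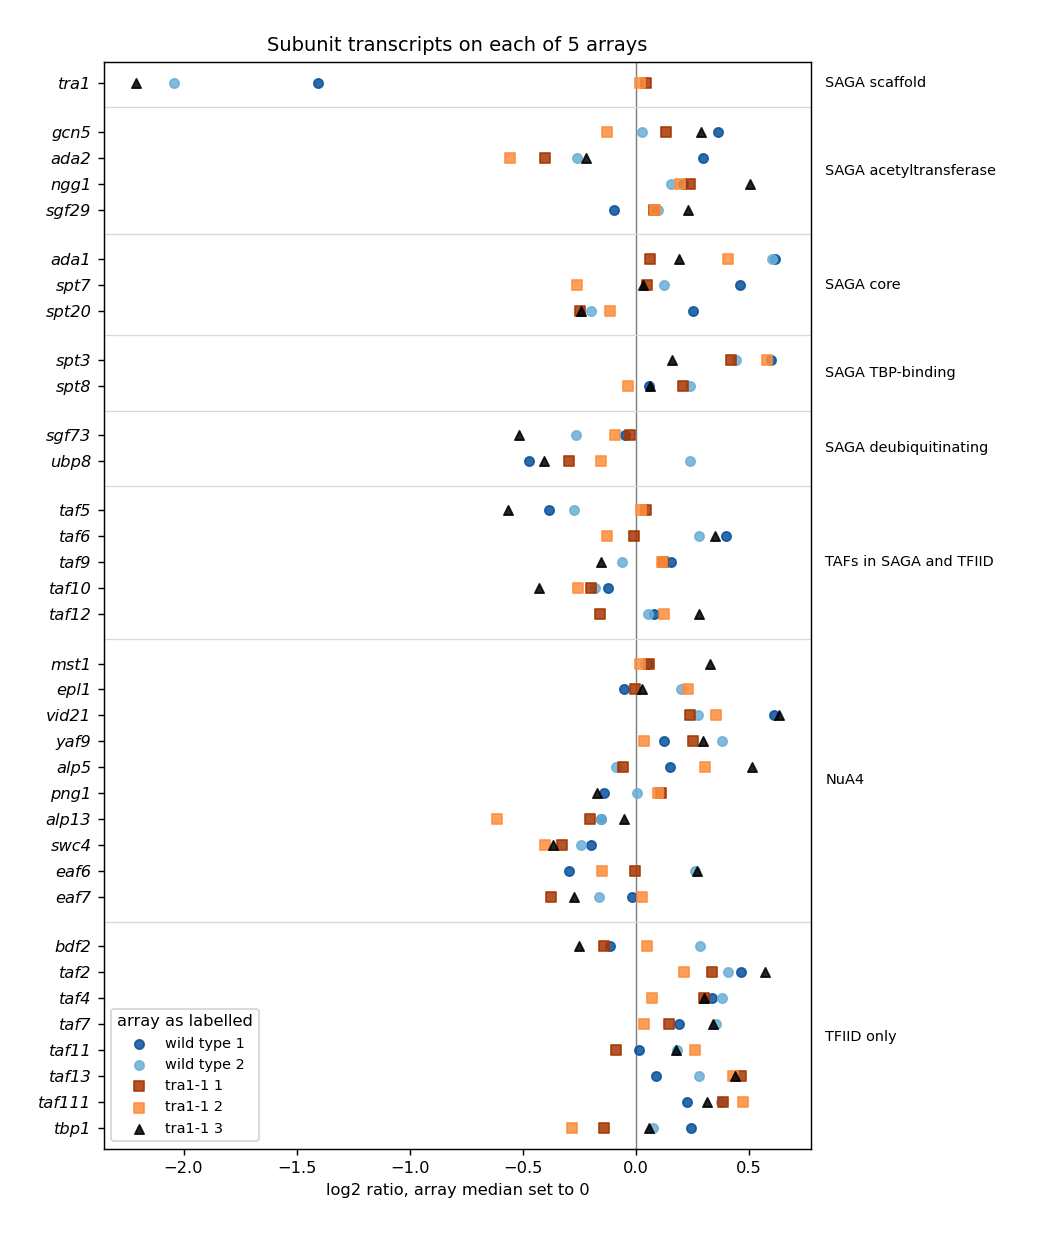
Log2 ratio (horizontal axis, array median set to 0) of each measured subunit gene (vertical axis, by module) on each of the 5 arrays, 1 symbol per array named by its label. Apart from tra1, which reaches -2.21, all values lie between -0.61 and 0.63.

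The TAFs shared by SAGA and TFIID included a pair of genes with opposite array patterns. taf5, a WD repeat subunit, stood at -0.38, -0.27, 0.05, 0.02 and -0.56 on WT1, WT2, TR1, TR2 and TR3, so it was low on the same arrays as tra1. taf6, a histone-fold subunit, stood at 0.40, 0.28, -0.01, -0.13 and 0.35, high on those arrays. Neither pattern separates the labelled groups, and the differences of 0.16 ± 0.21 for taf5 and -0.27 ± 0.18 (SE) for taf6 did not pass the test. Without TR3 they were 0.36 and -0.41 (limma adjusted p = 0.239 and 0.185). The low taf5 values came from 1 oligonucleotide, which read -0.61, -0.53, 0.01, 0.02 and -1.16, while the other stayed between -0.16 and 0.09. These patterns were not particular to this pair. tbp1 was also higher on WT1, WT2 and TR3 (0.24, 0.07 and 0.06) than on TR1 and TR2 (-0.14 and -0.28). mot1, listed with the general transcription factors, was lower there (-0.43, -0.59 and -0.76, against 0.08 and 0.002). The share of all genes with either pattern was not counted, and whether taf5 and tra1 vary together was not tested.

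The other shared TAF genes encode histone-fold proteins. taf10 was below 0 on all arrays, from -0.43 on TR3 to -0.12 on WT1, and its difference was -0.14 ± 0.16 (SE). That difference came from 1 oligonucleotide, at -0.29, while the other gave 0.01. taf9, the partner of taf6, ranged from -0.16 to 0.16, and taf12 from -0.16 to 0.28. Their differences were -0.02 ± 0.17 and 0.02 ± 0.18 (SE), and these signs turned in 5 and 8 of 15 alternatives, for taf12 also with values as deposited and with quantile or scale normalization.

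NuA4 genes were balanced, with 5 of 10 higher and 5 lower in the group labelled tra1-1. mst1, the catalytic subunit, stood at 0.05, 0.04, 0.06, 0.02 and 0.33 on WT1, WT2, TR1, TR2 and TR3, near 0 on all arrays except TR3, with a difference of 0.09 ± 0.17 (SE). vid21, the platform subunit, stood at 0.61, 0.27, 0.24, 0.36 and 0.63, the highest NuA4 gene on average, with a difference of -0.03 ± 0.18 (SE). swc4, which NuA4 shares with the SWR1 remodeller, stood at -0.20, -0.24, -0.33, -0.40 and -0.37. Its groups did not overlap, but the gap between them was small, and the difference was -0.14 ± 0.15 (SE, limma adjusted p = 0.871). alp5, an actin-related protein gene, had 0.15, -0.09, -0.06, 0.30 and 0.51 and a difference of 0.22 ± 0.20 (SE, limma adjusted p = 0.831), the largest in NuA4 over all 5 arrays. Without TR3 it was 0.09, under the -0.25 of alp13 and the 0.17 of png1, and none of the 3 was called. alp13, a chromodomain protein gene, was below 0 on all arrays, from -0.61 on TR2 to -0.05 on TR3, and yaf9, which encodes a YEATS domain reader, was above 0 on all arrays, from 0.04 to 0.38. Remaining differences were 0.01 for epl1, whose product anchors the catalytic subunit, 0.08 for png1, of the ING family, 0.06 for eaf6 and -0.12 for eaf7. The signs for epl1, eaf6, yaf9, vid21 and png1 differed between their oligonucleotides.

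TFIID-specific genes lay above the array median more often than not. taf111, which encodes the fission yeast Taf1, stood at 0.22, 0.38, 0.38, 0.47 and 0.32 on WT1, WT2, TR1, TR2 and TR3, with a difference of 0.09 ± 0.16 (SE). taf2 stood at 0.46, 0.41, 0.33, 0.21 and 0.57, and taf4, which pairs with Taf12, at 0.34, 0.38, 0.30, 0.07 and 0.30. Both were positive on all arrays, with differences of -0.06 ± 0.17 and -0.14 ± 0.16 (SE). taf7 had 0.03 to 0.36, and its difference was -0.10 ± 0.17 (SE). taf13 stood at 0.09, 0.28, 0.46, 0.43 and 0.44, the 1 subunit gene with all tra1-1-labelled values above the others, and its difference was 0.26 ± 0.16 (SE, limma adjusted p = 0.747). taf11, the histone-fold partner of taf13, overlapped between the groups (-0.09 to 0.26), with a difference of 0.02 ± 0.17 (SE), whose sign turned in 7 of 15 alternatives, values as deposited among them.

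tbp1, the TATA-binding protein gene, stood at 0.24, 0.07, -0.14, -0.28 and 0.06 on WT1, WT2, TR1, TR2 and TR3. Both wild-type-labelled values were above the rest, although WT2 and TR3 were almost level, and the difference was -0.28 ± 0.17 (SE, limma adjusted p = 0.747). Without TR3 it was -0.37 (limma adjusted p = 0.239). bdf2, a double bromodomain protein gene listed with TFIID, stood at -0.11, 0.28, -0.14, 0.05 and -0.25, with overlapping groups and a difference of -0.20 ± 0.18 (SE).

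The median difference was -0.06 over the 35 genes, with 22 below 0 and 13 above, where the median over all genes was -0.0025 and 50.6% lay below. It was -0.10 for SAGA (12 of 17 below 0), -0.01 for NuA4 (5 of 10) and -0.06 for TFIID (8 of 13). Without tra1 the SAGA median was -0.11. Leaving out WT1 brought the SAGA median to -0.005 and leaving out WT2 brought it to -0.16, so its size rested on which wild-type-labelled array was used. Without WT2 the medians over the 35 genes and over TFIID were both -0.0155. Means and medians had the same sign in all 3 complexes. On the single arrays, TFIID had medians of 0.16, 0.28, 0.05, 0.07 and 0.28 on WT1, WT2, TR1, TR2 and TR3, where the median of all genes was between -0.01 and 0.02. The values for SAGA without tra1 were 0.18, 0.07, 0.05, -0.06 and 0.05, and those for NuA4 were -0.03, 0.02, -0.004, 0.03 and 0.15. TFIID was thus above the all-gene median on every array, and SAGA on all but TR2.

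**Figure D4:**
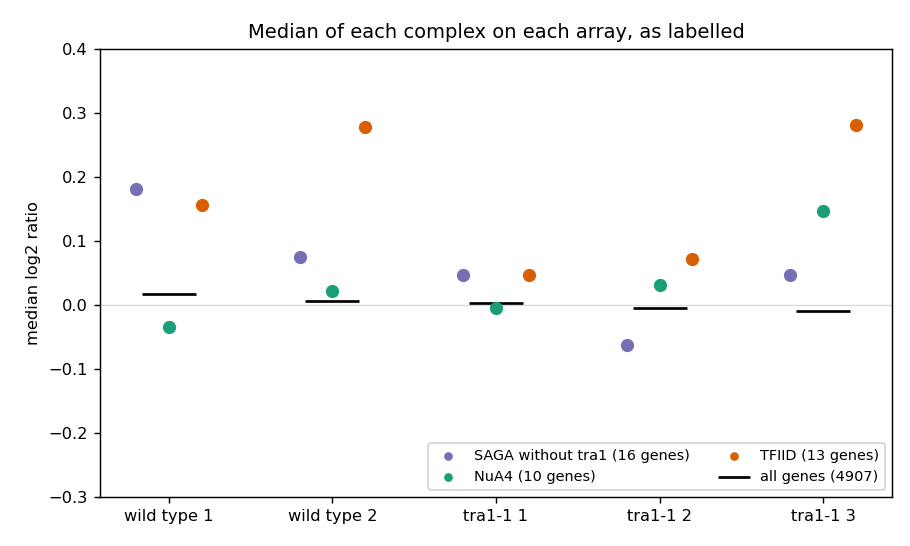
Median log2 ratio (vertical axis) over the genes of each complex on each array as labelled (horizontal axis), with the median of all 4907 genes as a black bar. TFIID medians run from 0.05 to 0.28 and lie above the bar on each array.

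Ratios against 0 read each labelled group directly, including any effect of dye or probe that all arrays share. For WT1 and WT2 together, limma called 2 of 35 subunit genes above 0, ada1 at 0.61 and spt3 at 0.52 (adjusted p = 0.0173 and 0.0370), where 6.4% of all genes were called. It called 1 below 0, tra1 at -1.72 (adjusted p = 0.0310), where 4.99% of all genes were. On the arrays labelled tra1-1, 1 was called above 0, taf13 at 0.44 (adjusted p = 0.0427), against 5.6% of all genes, and 0 below, against 2.22%. These shares were near or under the background.

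The calls against 0 were not stable. With values as deposited, in which array medians lay between -0.43 and -0.21, 0 subunit genes were called above and 5 below on WT1 and WT2 (tra1, taf5, taf10, alp13 and swc4), against 1.94% and 29.9% of all genes. On the arrays labelled tra1-1, 0 were called above and 13 below (37.1% of the 35), against 1.35% and 51.9% of all genes. With a robust prior the limma adjusted p of tra1 was 0.236. Without WT1 or WT2, the single remaining array took its spread from the group labelled tra1-1, and it cannot show whether these calls are stable. The ratios were then -2.04 and -1.41 for tra1, 0.60 and 0.61 for ada1, and 0.44 and 0.60 for spt3. The call of spt3 was lost without TR1 (limma adjusted p = 0.0614), where 8.05% of all genes were called. The call of taf13 was lost without TR1 (0.156) or TR2 (0.165), where 2.85% and 1.32% of all genes were called, against 7.83% with TR1, TR2 and TR3. With the first oligonucleotide alone the calls of ada1, spt3 and taf13 were lost (limma adjusted p = 0.512, 0.206 and 0.793). With the second alone they stood (limma adjusted p = 0.00481, 0.0320 and 0.0155). Without TR3, 8 subunit genes were called on WT1 and WT2, adding taf5, taf6, vid21, taf2 and taf4, and 6 on those labelled tra1-1 (ada2, spt3, alp13, swc4, taf13 and taf111). Of all genes, 27.9% and 22.4% were then called in either direction, against 22.9% and 17.1% of the 35.

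Offsets of 1 sign on all arrays were found in 15 of the 35 genes (42.9%), near the 37.5% of all genes. Of the 35 genes, 11 were above 0 on all 5 arrays (ngg1, ada1, spt3, mst1, vid21, yaf9, taf2, taf4, taf7, taf13 and taf111), where 20.4% of all genes were. Another 4 were below 0 on all 5 (sgf73, taf10, alp13 and swc4), where 17.1% of all genes were. By complex, the genes above 0 on all arrays numbered 3 of 17 in SAGA, 3 of 10 in NuA4 and 5 of 13 in TFIID. Such offsets are present on arrays with wild-type cDNA in both dyes by label and cancel in the difference between the groups.

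The 2 oligonucleotides of a gene show how much of these values belongs to the probe. Over the 35 genes the median gap between the 5-array means of the oligonucleotides was 0.19, against 0.26 over 4573 named genes with both measured on every array. The median gap between their group differences was 0.25, against 0.23. Across the 35 genes, the 5-array means of the oligonucleotides correlated with r = 0.32 and their group differences with r = 0.34. Across the 34 genes other than tra1 these correlations were 0.03 and -0.03, so they rested on tra1. Over the 4573 genes, tra1 among them, they were 0.36 and 0.35. In 10 of the 35 the same oligonucleotide read higher on all 5 arrays (34.1% of all such genes). The widest gap was in ubp8, where one read 0.09, 0.83, 0.16, 0.52 and 0.29 on WT1, WT2, TR1, TR2 and TR3 and the other -1.03, -0.35, -0.75, -0.83 and -1.10. These lay on opposite sides of 0 on every array, so the gene mean of -0.22 averages unlike readings. png1 likewise had one oligonucleotide below 0 and the other above on every array, with means of -0.32 and 0.28.

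Offsets of this kind stood behind several of the steadily positive genes. ada1 had oligonucleotide means of -0.09 and 0.84, ngg1 -0.09 and 0.61, and taf13 -0.10 and 0.78, so in each a single oligonucleotide carried the positive gene value. In spt3 (0.42 and 0.46), taf111 (0.41 and 0.30), taf4 (0.30 and 0.25) and vid21 (0.30 and 0.54) both were positive. Of the genes below 0 on all arrays, sgf73 had means of -0.38 and 0.0003 and alp13 -0.01 and -0.46. In taf10 (-0.15 and -0.32) and swc4 (-0.38 and -0.23) both were negative. For the difference between the groups, the oligonucleotides had the same sign in 19 of 35 genes (54.3%, against 56.6% of those 4573 genes), among them tra1 at 1.27 and 0.75. They disagreed most in taf7 (0.29 and -0.48), eaf6 (-0.28 and 0.39), yaf9 (0.26 and -0.38) and taf11 (-0.27 and 0.31). In taf13 the group difference came from the oligonucleotide with the lower ratio (0.44) and not from the other (0.08).

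**Figure D5:**
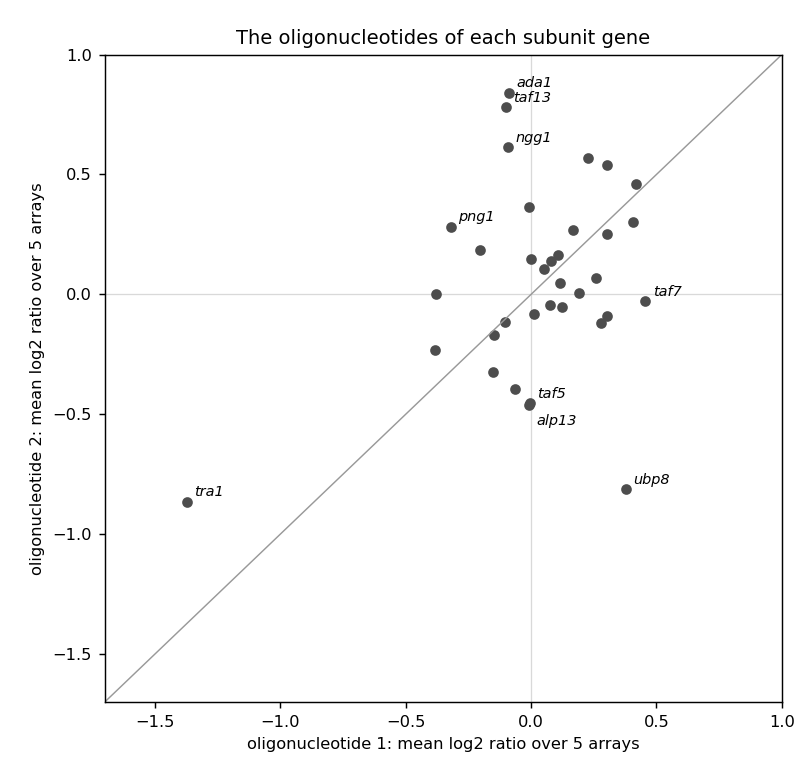
Mean log2 ratio over 5 arrays of oligonucleotide 1 (horizontal axis) against oligonucleotide 2 (vertical axis) for 35 subunit genes, with the line of equality. Genes with a gap of at least 0.45 are named, and ubp8, ada1 and taf13 lie farthest from the line.

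Genes that work beside these complexes gave no called difference either. Of 8 further subunits, 0 passed limma's test in either direction, with a median difference of -0.02. They include tra2, the NuA4 scaffold, at 0.44, -0.004, 0.09, -0.24 and -0.01 on WT1, WT2, TR1, TR2 and TR3 (difference -0.27 ± 0.19, SE), and taf51, a Taf5 paralog, at a difference of -0.28 ± 0.18 (SE). None of the 20 general transcription factor and TBP regulator genes, 20 Mediator genes and 20 genes of SWR1 and INO80 passed in either direction, with medians of 0.005, -0.01 and 0.05. The largest values among those with the smallest p were -0.39 for tfg1, of TFIIF, -0.34 for srb4, of Mediator, and 0.31 for vps71, of SWR1. Among 9 other acetyltransferase complex genes, 7 were above 0 with a median of 0.18 and 0 passed the test, as in ptf1, of the Mst2 complex, at 0.42 ± 0.16 (SE, limma adjusted p = 0.685). Among 16 deacetylase complex genes 0 passed, with a median of 0.05 and set3 at -0.46 ± 0.16 (SE, limma adjusted p = 0.654).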

How the data were processed

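As deposited, each probe has a log ratio of its 2 channels on each array, taken here as log2. Spotted arrays with Cy5 and Cy3 cDNA are described per the labels' protocols. Not given in the sources used here are the scanner, background correction, within-array normalization and log base. Of 9858 probes, 9632 had 1 gene symbol in the platform annotation, 44 had several and 182 were not listed. Arrays gave 9695 to 9832 values. Each array was centred on its median, the 2 oligonucleotides of a gene were averaged, and 4907 genes and unnamed probe pairs with values on all 5 arrays were kept.

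Differences between the labelled groups, and the wild-type ratio against 0, were fitted with lmFit and eBayes (limma 3.58.1, R 4.3.3) over all 5 arrays, and the tra1-1 ratio against 0 over its 3 arrays, 2-sided, with Benjamini-Hochberg adjustment over all genes at 0.05. Precision is limited by the number of arrays. The fit was tested on simulated data. Members, gene lists and tests were chosen with earlier results of these data known. All measured members are named, and up to 4 genes of other lists by the smallest p. Figures used matplotlib 3.10.9 in Python 3.11.15. Symbols were updated through the ASM294v3 gene table. Its gene start coordinates gave the order of the genes beside tra1, and no sequences were used. Alternatives were a replicate block, values as deposited, quantile and scale normalization, single oligonucleotides, other handling of missing values, array weights, a robust prior and the omission of each array in turn.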

Additional observations from a re-analysis of the deposited data

How the results depend on the processing

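With 5 arrays, small differences could not be resolved. Over the 35 subunit genes and 15 alternatives, 468 of 525 differences kept their sign and 57, none of them called, turned it, in 21 genes. The robust prior and both alternatives for missing values could turn no sign, since they left each of the 35 differences unchanged. The replicate block gave the same differences as leaving out TR3, so these alternatives do not count separately. Of all genes, limma called 2 between the groups with scale normalization, 1 with the second oligonucleotide alone, 95 with array weights and 329 with a replicate block, and 0 to 205 when an array was left out, 205 without TR3. Of the subunit genes it called 1, tra1, with array weights (1.49) and with the replicate block (1.75), and 0 to 1 with an array left out. Whether the shared repeat numbers pair the arrays was not settled. Deviations from the group means correlated with 0.04 and -0.03 between arrays of the same number. Those of WT1 and WT2 are exact opposites, and TR3 enters those of TR1 and TR2, so these are not separate checks. The block takes up TR3 whole, since that repeat exists in 1 group only. Counts of subunit genes called against 0 are given with the share of all genes called in the same setting. On the arrays labelled wild type they numbered 5 with values as deposited (31.8% of all genes), 5 with quantile (15.3%) and 5 with scale normalization (17.4%), 1 and 6 with the first and second oligonucleotide alone (10.4% and 11.4%), 6 with array weights (24.2%), 8 with the replicate block (30.3%) and 0 to 8 with an array left out (0% without WT1 or WT2, 27.9% without TR3). On those labelled tra1-1 they numbered 13 with values as deposited (53.3%), 5 with quantile (12.8%) and 6 with scale normalization (13.7%), 5 with the second oligonucleotide alone (11.5%), 2 with a robust prior (10.7%), 6 with array weights (18.1%) and 0 to 6 with an array left out (2.85% without TR1, 1.32% without TR2, 22.4% without TR3). Median differences with an array left out ran from -0.16 to -0.005 for SAGA and from -0.0813 to 0.0752 for NuA4, where the second oligonucleotide alone gave -0.13. They ran from -0.0848 to -0.0155 over the 35 genes and from -0.0845 to -0.0155 for TFIID, each nearest 0 without WT2. The cause was not tested.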
